A study of Mus musculus with 9 samples.

Results

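In all, 9 genes of the bone morphogenetic protein (BMP) pathway were followed through the mouse synovial joint, namely the ligands *Bmp2*, *Bmp4*, *Bmp5* and *Bmp6*, the secreted antagonists *Grem1*, *Chrdl1* and *Nog*, and the target genes *Id1* and *Id3*. They were chosen by symbol from the 54534 genes in each count matrix, and all 9 were found. Single-cell RNA-sequencing had been carried out on 9 libraries from *Gdf5-Cre;Tom;Pdgfrα-H2BGFP* mice aged 11 to 12 weeks. In these mice Cre under *Gdf5* regulatory sequence marks descendants of the embryonic joint interzone with the red reporter Tom, and cells in which *Pdgfrα* is active carry nuclear GFP. Live Tom+ cells (*Gdf5*-lineage) and Tom-GFP+ cells (*Pdgfrα*-expressing, outside the *Gdf5* lineage) were sorted after collagenase digestion. Steady-state cells came from uninjured knees, as 2 Tom+ libraries and 1 Tom-GFP+ library. Injured-state cells came from knees taken 6 days after a full-thickness scratch of the trochlear groove cartilage through a medial parapatellar arthrotomy, as 4 Tom+ and 2 Tom-GFP+ libraries. Every group carried all of these alleles, and sex was not given. Because both sorts depend on a reporter, cells with neither colour were not sampled. No sham-operated group was analysed, so the arthrotomy and the cartilage scratch cannot be told apart.

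BMPs are secreted ligands of the transforming growth factor β superfamily. They bind paired type I and type II serine/threonine kinase receptors, which phosphorylate the receptor-regulated SMAD proteins, and these enter the nucleus with the common SMAD and switch on targets, with the *Id* genes among the most direct. Gremlin 1 (*Grem1*), chordin-like 1 (*Chrdl1*) and noggin (*Nog*) bind the ligands outside the cell and keep them from their receptors. In the skeleton the pathway drives cartilage and bone formation, and noggin is needed for joints to form. *Gdf5*, whose regulatory sequence drives the Cre used here, encodes another ligand of the same family and marks the interzone.

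Levels are given as CPM, the unique molecular identifiers (UMIs, each standing for 1 captured transcript) of a gene over all UMIs of the cells of a class in a library, scaled to a common total. A class was used in a library with at least 10 of its cells, and n counts such libraries. CPM was compared for a given gene between classes or libraries, never between genes. Classes were set by marker genes that did not include any of the 9 genes. Sublining fibroblasts were *Cd34*+ with *Thy1* or *Pdgfra*, lining fibroblasts (fibroblast-like synoviocytes, FLS) were *Prg4*+ *Clic5*+ with at least 4 of 6 lining markers, and other types needed at least 3 of 6 markers. Of 4788 cells kept, 4033 fell into 1 class, 58 into several and 697 into none. The classes held 2340 sublining, 677 lining, 453 *Prg4*+ *Clic5*-, 162 tenocyte, 109 immune, 102 chondrocyte, 96 osteoblast, 89 mural and 5 endothelial cells.

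On GRCm38.p6 *Bmp2* lies on chromosome 2 at 133552159 to 133562885, *Bmp6* on chromosome 13 at 38345107 to 38500302, and *Id1* on chromosome 2 at 152736251 to 152737410. *Id3* lies on chromosome 4 at 136143497 to 136145755, *Grem1* on chromosome 2 at 113746164 to 113758646, *Chrdl1* on chromosome X at 143285674 to 143394262, and *Nog* on chromosome 11 at 89300638 to 89302332. These are whole gene spans of the GENCODE annotation, and *Bmp4* and *Bmp5* are placed where their upstream sequence is shown.

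Genes not used to set the classes were read as a check. *Has1*, *Cd55* and *Hbegf* were detected in 96.0%, 86.6% and 93.5% of lining cells, against 41.5%, 45.3% and 18.2% of sublining cells. *Col11a2* was found in 72.5% of chondrocyte-gate cells, but *Matn3* in only 30.4%, and *Acta2* and *Des* were each found in 89.9% of mural cells. The osteoblast label was the least secure, since *Bglap* was found in 75.0% of its cells but also in 58.5% of lining cells, and the osteocyte gene *Mepe* in 3.13%. Libraries held 2866464 to 15033902 UMIs. Only 12 cell barcodes were present in more than 1 library, of 4776 distinct barcodes. An older gene-list format was used for every steady-state library and, of the injured ones, for Tom+ replicate 1 alone, so format and state cannot be told apart except through that library. In Tom-GFP+ injured replicate 2 only 65.3% of barcodes passed the quality thresholds, against 88.6% to 99.9% in the others.

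*Bmp2*, a strong osteogenic ligand, was most abundant in the skeletal classes. Its level was 179 ± 170 CPM in chondrocytes (SD, n = 6 libraries), 91.4 ± 67.4 in osteoblasts (n = 4) and 69.2 ± 40.5 in mural cells (n = 2), compared with 23.5 ± 30.3 in lining (n = 8) and 12.8 ± 14.8 in sublining (n = 9). The spread was as large as the mean in most classes, and the ranges of all neighbouring classes in this order overlapped. *Bmp4*, a ligand with roles in mesenchymal patterning, had its highest means in osteoblasts, at 60.3 ± 30.9 CPM (n = 4), and tenocytes, at 50.0 ± 61.7 (n = 7), followed by sublining, with a range of 8.54 to 71.1 (n = 9). It was low in lining, at 7.93 ± 7.48, in chondrocytes, at 5.96 ± 7.52, and in mural cells, at 3.24 ± 1.71. In order of level only mural and immune cells did not overlap among neighbours. The class means here and below pool steady-state and injured libraries, in shares that differ between classes. Within steady state *Bmp4* was higher in the tenocyte libraries than in the osteoblast ones, and osteoblast and sublining values overlapped.

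*Bmp5*, a ligand known for skeletal element shape, had its highest means in mural cells, at 47.6 ± 4.41 CPM (n = 2, injured only), and chondrocytes, at 45.8 ± 25.8 (n = 6). Sublining, the largest class, had 6.69 ± 7.13 CPM (n = 9) but held 183 *Bmp5* UMIs, against 46 in mural cells and 44 in chondrocytes. Lining cells held 5 *Bmp5* UMIs among 11841322. *Bmp6*, which also controls iron balance through hepcidin in the liver, was the one ligand with its highest mean in the lining, at 22.7 ± 15.5 CPM (n = 8), above chondrocytes at 11.7 ± 15.9 and sublining at 2.07 ± 1.40. Neighbouring ranges overlapped for both genes.

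Among the antagonists, *Chrdl1* was found in chondrocytes at 55.3 ± 34.7 CPM (n = 6), tenocytes at 49.7 ± 54.9 (n = 7) and sublining at 13.3 ± 13.2 (n = 9). Not one *Chrdl1* UMI was seen in 677 lining cells. *Nog* was scarce, with means of 18.8 ± 15.7 CPM in chondrocytes and 11.1 ± 13.2 in osteoblasts and under 1.42 in the other classes. *Grem1*, which marks a skeletal progenitor population in bone, was also rare, and 26 of the 30 UMIs in the osteoblast gate lay in 1 cell of Tom+ steady state replicate 2, so its mean there of 28.2 CPM describes that cell. Tenocyte and mural classes held 0 *Grem1* UMIs.

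Both target genes were widespread. *Id3* was detected in 91.2% of sublining cells and was highest in mural cells, at 2167 ± 416 CPM (n = 2), above the range of chondrocytes at 1126 ± 332 (n = 6), osteoblasts at 1086 ± 343 and sublining at 862 ± 187. Lining cells had 418 ± 122 CPM (n = 8). *Id1* peaked in chondrocytes, at 497 ± 174 CPM (n = 6), with no overlap with mural cells at 108 ± 9.97, while lining and sublining had 35.6 ± 30.7 and 33.7 ± 15.1. *Bmp4*, *Bmp5*, *Bmp6*, *Grem1* and *Chrdl1* were each at 0 in the 3 libraries with at least 10 immune cells.

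**Figure D1:**
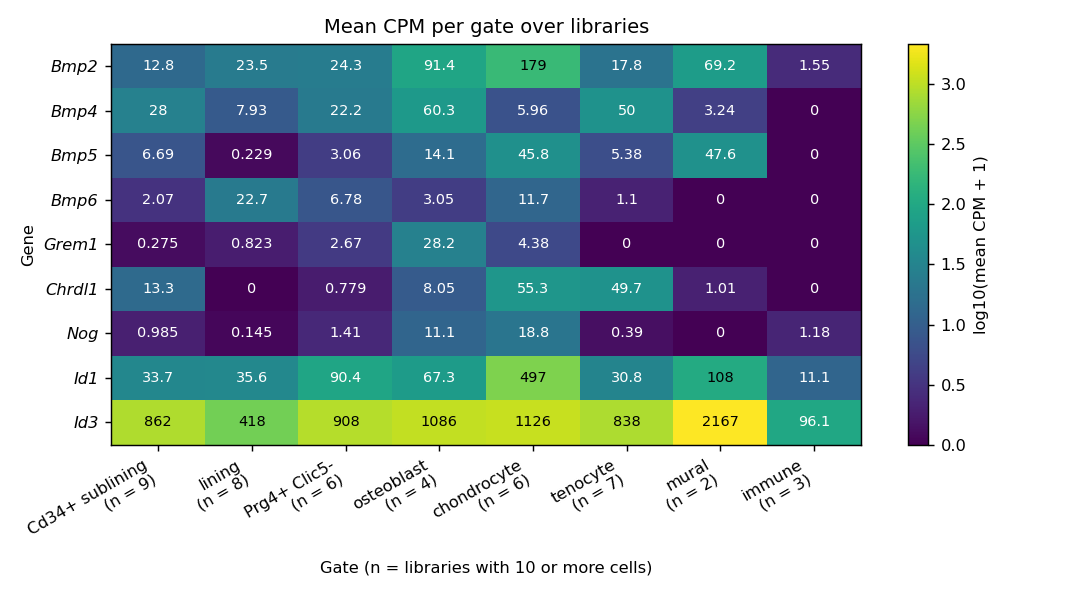
Level of each of the 9 genes by cell class. Colour gives the mean CPM over libraries with at least 10 cells of the class, pooling steady-state and injured libraries in shares that differ between classes. *Bmp6* has its highest mean in lining (22.7 CPM), *Bmp2*, *Chrdl1*, *Nog* and *Id1* in chondrocytes, *Bmp5* and *Id3* in mural cells, and *Bmp4* and *Grem1* in osteoblasts.

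The lining and sublining of the same Tom+ library were compared to ask how the pathway divides between these compartments of the synovium. *Bmp6* and *Bmp2* were higher in the lining, and *Bmp4*, *Chrdl1* and *Id3* were higher in the sublining. In all, 5 of the 6 genes tested passed a false discovery rate of 0.05 (edgeR quasi-likelihood test with library as a block, Benjamini-Hochberg adjusted over all genes), against 31.2% of all genes tested.

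*Bmp6* in lining was 50.9 and 39.8 CPM in the steady-state libraries and 23.4, 16.5, 6.84 and 11.2 in injured replicates 1 to 4. In sublining it was 3.14, 1.14, 3.19, 1.196, 1.83 and 0.337 CPM in the same order. The lining value was higher in 6 of 6 libraries and the ranges did not overlap. The log2 difference was 3.35 ± 0.33 (SE), or 10.2-fold (adjusted p = 1.593e-05). *Bmp4* showed the opposite order in 6 of 6 libraries, with 2.13 to 24.3 CPM in lining and 8.54 to 71.1 in sublining. It was lower in lining by 3.13-fold (log2 difference -1.64 ± 0.18, adjusted p = 3.323e-05).

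*Chrdl1* gave 0 UMIs among 10608217 from 617 Tom+ lining cells, and 5.87 to 13.5 CPM in the matching sublining libraries. Against a floor of 3 counts over the group it was at least 28.5-fold lower in lining (adjusted p = 0.0004036), and 0 of 617 cells allows a share of up to 0.486% of cells with a UMI, counting error only. *Id3* was 286 to 601 CPM in lining and 626 to 1272 in sublining, with no overlap, and was 2.47-fold lower in lining (log2 difference -1.30 ± 0.15, adjusted p = 7.179e-05). *Id1* was 15.3 to 104 CPM in lining and 22.1 to 62.8 in sublining, which overlapped (log2 difference -0.18 ± 0.27, adjusted p = 0.668).

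*Bmp2* was higher in lining in 5 of 6 libraries, but the steady-state lining replicates were far apart, at 3.18 and 95.1 CPM, and 35 UMIs of the latter came from 1 cell. The log2 difference was 1.32 ± 0.34 (adjusted p = 0.012). With 1 more marker required for a class it fell to 0.96 (adjusted p = 0.161), and the call was lost. When every cell was thinned to 3000 UMIs only *Id1* and *Id3* could be tested, and 1 call, of *Id3*, was made. In this and every later thinned fit the classes were set again on the thinned counts. Class membership therefore changed along with depth. The remaining 3 genes, *Bmp5*, *Nog* and *Grem1*, did not pass the filter on low counts.

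**Figure D2:**
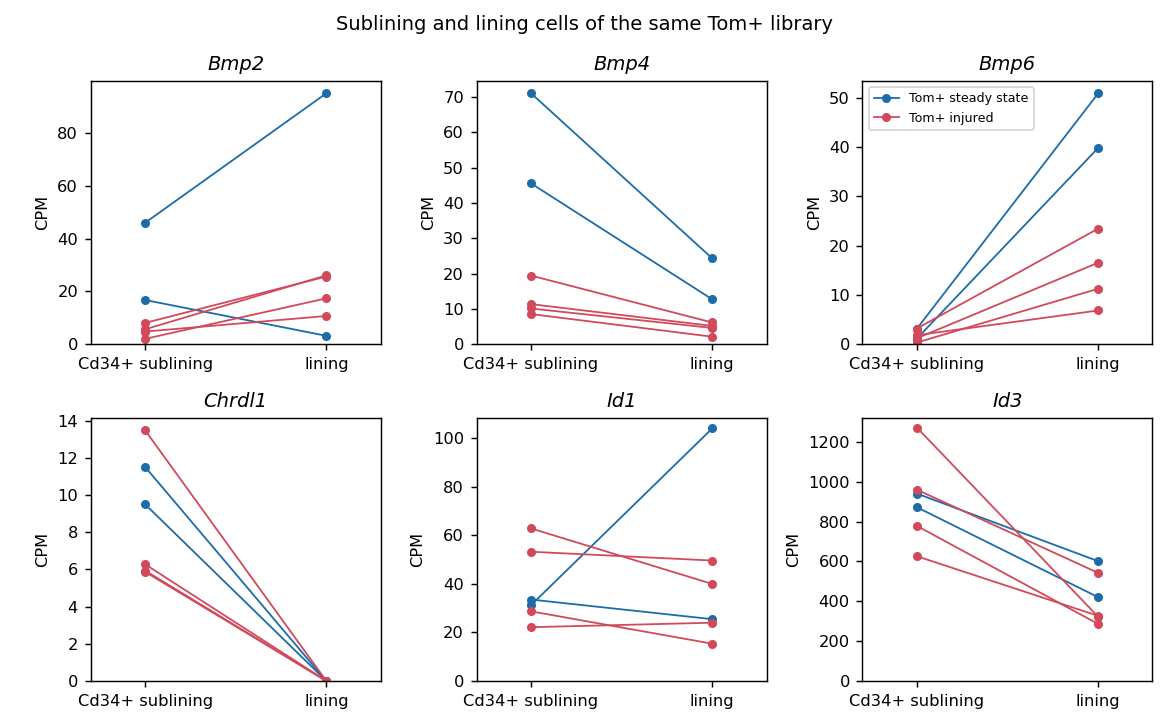
CPM of the tested genes in lining and sublining, 1 line per Tom+ library, coloured by state. *Bmp6* rises from sublining to lining in all 6 libraries, while *Bmp4*, *Chrdl1* and *Id3* fall in all 6.

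*Prg4*+ *Clic5*- cells, which carry at least 10 *Prg4* UMIs but neither *Clic5* nor *Thy1*, were set against the lining to ask whether *Prg4*-expressing cells outside the FLS gate share its pattern. They had more *Id3*, at 578 to 1222 CPM against 286 to 542, and the ranges did not overlap. The log2 difference was 1.41 ± 0.14 (adjusted p = 7.43e-05). *Id1* was also higher, at 43.1 to 172 CPM against 15.3 to 104 and in 5 of 5 libraries (1.22 ± 0.18, adjusted p = 0.0008029). *Bmp6* was lower in 5 of 5, at 3.22 to 14.6 CPM against 6.84 to 39.8 (-1.33 ± 0.25, adjusted p = 0.003595). *Bmp4* was higher by 1.13 ± 0.34 (adjusted p = 0.04915), a call that 7 alternatives ended, and *Bmp2* did not pass. The 4 calls of 5 genes tested stand beside 15.6% of all genes. In the same comparison 5 of 14 immediate early genes, which respond to cell handling, were higher in the *Prg4*+ *Clic5*- cells and 2 were lower. *Cd34*, which defines the sublining gate, was detected in 55.6% of them against 22.6% of lining cells, and *Comp* in 53.0% against 20.1%. Cycling cells were 4.88% to 29.4% in the Tom+ injured libraries against 1.72% to 7.07% of their lining cells. The part of these measures in the differences was not tested.

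Universal fibroblasts (*Dpp4*+ with at least 4 of 6 markers, termed F4 in the study) are a broadly distributed *Dpp4*+ *Pi16*+ type, and *Pi16* was detected in 74.2% of the 392 cells of the gate. They had more of the ligands *Bmp2* and *Bmp4* and less of both *Id* genes than the rest of the sublining. The 4 calls of 5 genes tested compare with 11.8% of all genes. In universal cells of steady state, *Bmp2* stood at 21.9 and 77.5 CPM (Tom+) and 35.1 CPM (Tom-GFP+), and in the 6 injured libraries it was 0 to 18.0 CPM. It exceeded the whole-sublining value in 8 of 9 libraries (log2 difference from the other sublining cells 0.91 ± 0.19, adjusted p = 0.002923).

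*Bmp4* in universal cells was 13.3 to 111 CPM and above the whole-sublining level in 9 of 9 libraries (log2 difference 0.68 ± 0.19, adjusted p = 0.02528). The call was lost with 1 more marker required (adjusted p = 0.222) and without Tom+ steady state replicate 2 (adjusted p = 0.0849), and after thinning the difference was -0.09. *Id1* was 5.54 to 31.1 CPM in universal cells and below the sublining level in 9 of 9 libraries (-1.09 ± 0.19, adjusted p = 0.0006859). *Id3* was lower in 8 of 9 (-0.57 ± 0.13, adjusted p = 0.007424), and thinned it did not pass (-0.46, adjusted p = 0.351). Of the immediate early list 5 of 14 genes were lower in universal cells and 0 were higher, and their part in the *Id* differences was not tested.

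Injury-induced sublining cells had at least 3 of the markers *Lrrc15*, *Adam12*, *Tnc* and *Mdk*. They are called *Lrrc15*+ cells for short, although *Lrrc15* itself was not required. They were present in numbers only in injured libraries, at 486 cells. *Bmp4* in these cells was 3.26, 5.51, 6.22 and 5.98 CPM in Tom+ injured replicates 1 to 4 and 3.65 and 3.49 in the Tom-GFP+ ones. In the whole sublining the same libraries had 8.54 to 19.4 CPM. All 6 libraries were lower, and the log2 difference from the other sublining cells was -2.23 ± 0.23 (adjusted p = 5.31e-05). It was the 1 call among 4 genes tested, against 14.6% of all genes, and with 1 more marker required its adjusted p was 0.14. *Id1*, *Id3* and *Chrdl1* did not pass, and 10 of 14 immediate early genes were lower.

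Smaller sublining subsets, each set by 3 markers that the study used for its fibroblast clusters, are given as levels only. The *Ccl11*+ *Smoc2*+ *Hsd11b1*+ subset (F6) held 37 cells, 29 of them from the Tom-GFP+ steady-state library, and there *Bmp4* reached 198 CPM. In that library *Bmp4* was detected in 72.4% of the F6 cells (exact 95% interval 52.8% to 87.3%) and in 28.0% of all its sublining cells, which include them. The *C7*+ *Fmo2*+ *Kitl*+ subset (F5) held 29 cells, all Tom-GFP+, with *Chrdl1* at 50.5 CPM in steady state and 101 in injured replicate 1, and detected in 44.8% of cells. *Id1* in F5 cells came to 2 UMIs.

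Chondrocytes carried the largest number of calls among the skeletal types, with 5 of 6 genes tested against 16.0% of all genes. Over all genes tested the median log2 difference was -0.148, so values are best read against that shift. *Id1* was 638, 651, 437, 605, 452 and 197 CPM in Tom+ steady state 2, Tom-GFP+ steady state 1, Tom+ injured 1, 3 and 4 and Tom-GFP+ injured 1. The same libraries had 22.9 to 62.8 CPM in sublining, so the ranges did not overlap (log2 difference 3.62 ± 0.26, 12.3-fold, adjusted p = 3.592e-07). After thinning to 3000 UMIs only the *Id* genes could still be tested. *Id3* was 816 to 1616 CPM against 626 to 1272 and did not pass (adjusted p = 0.478). Of the immediate early list 9 of 14 genes were higher in chondrocytes and 0 lower, with a summed level of 16801 to 41906 CPM against 3983 to 12701 in sublining, and the part of this in the *Id1* difference was not tested.

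*Bmp2* in chondrocytes was 216, 29.2, 230, 474, 103 and 19.7 CPM in the same order of libraries, and was above sublining in 6 of 6 (log2 difference 3.76 ± 0.64, adjusted p = 0.000885). The Tom-GFP+ libraries were the lowest. Summed lining markers in the class, which include *Prg4*, also differed by lineage, at 5865 to 23781 CPM in Tom+ libraries and 38.9 and 78.7 in Tom-GFP+ ones. The study describes its Tom+ chondrocytes as superficial zone cells. It describes its Tom- chondrocytes as mature or hypertrophic and likely from the growth plate. Both lineages were pooled in the class here, and the part of this in the *Bmp2* values was not tested. *Bmp5* was 19.2 to 93.0 CPM and above sublining in 6 of 6 (2.82 ± 0.59, adjusted p = 0.003793), and *Chrdl1* was 0 to 107 CPM and above it in 5 of 6 (1.95 ± 0.41, adjusted p = 0.004276). *Bmp4* was lower (-2.62 ± 0.70, adjusted p = 0.01938), but rested on 4 UMIs in 6 libraries and lost its call under 5 alternatives, among them DESeq2 (adjusted p = 0.0571). Tom+ injured replicate 1 stood apart, with a summed chondrocyte marker level of 3351 CPM against 13765 to 28472 in the other 5, and without it 5 genes were still called.

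Tenocytes form tendon and ligament. In them *Chrdl1* was 122 and 135 CPM in Tom+ and Tom-GFP+ steady state, 23.1, 30.1 and 0 in Tom+ injured replicates 1, 2 and 4, and 15.6 and 21.8 in the Tom-GFP+ injured replicates. Both steady-state libraries were the highest, and 6 of 7 libraries exceeded their sublining (log2 difference 1.69 ± 0.37, adjusted p = 0.01009). It was 1 call among 4 genes tested, against 5.2% of all genes. *Bmp4* in tenocytes followed the same order, at 122 and 154 CPM in steady state and 0 to 28.6 in the injured libraries, and did not pass against sublining (adjusted p = 0.259). The summed tenocyte marker level was 14448 and 18064 CPM in the steady-state libraries and 2853 to 5894 in the injured ones, and its part in these values was not tested. No test of injury was made in tenocytes.

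Osteoblast-gate cells had more *Bmp2* than sublining, with 146 and 138 CPM in Tom+ steady state against 0 and 81.4 in Tom+ injured replicates 1 and 2 (log2 difference 2.40 ± 0.48, adjusted p = 0.004052). Tom+ injured replicate 1, with 10 cells, was the exception. *Bmp2* was 1 call of 5 genes tested, against 8.15% of all genes. *Bmp4*, *Bmp5*, *Id1* and *Id3* did not pass, though *Id1* (0.96 ± 0.32) was called under 4 alternatives. Mural cells were compared in 2 Tom+ injured libraries only, so the design had 1 residual degree of freedom among samples. The p-values of this 2-library fit rest on a spread estimated across all genes. They do not measure the spread between the 2 libraries. *Bmp5* was 50.7 and 44.4 CPM against 5.36 and 0.598 in sublining (3.70 ± 0.51, adjusted p = 1.103e-11), and *Bmp2* was 40.5 and 97.8 CPM against 5.65 and 4.78 (3.33 ± 0.45, adjusted p = 2.256e-12). *Id3* was 1873 and 2462 CPM against 626 and 778 (1.43 ± 0.25, adjusted p = 1.975e-07), and with 6 libraries of at least 5 cells it did not pass (0.66, adjusted p = 0.0793). *Id1* was the fourth call of 6 genes tested (1.18 ± 0.28, adjusted p = 0.0002717), against 18.4% of all genes. DESeq2 did not call it (adjusted p = 0.221). Of the immediate early list 7 of 14 genes were higher in mural cells and 2 lower, and their part in the *Id* differences was not tested.

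**Figure D3:**
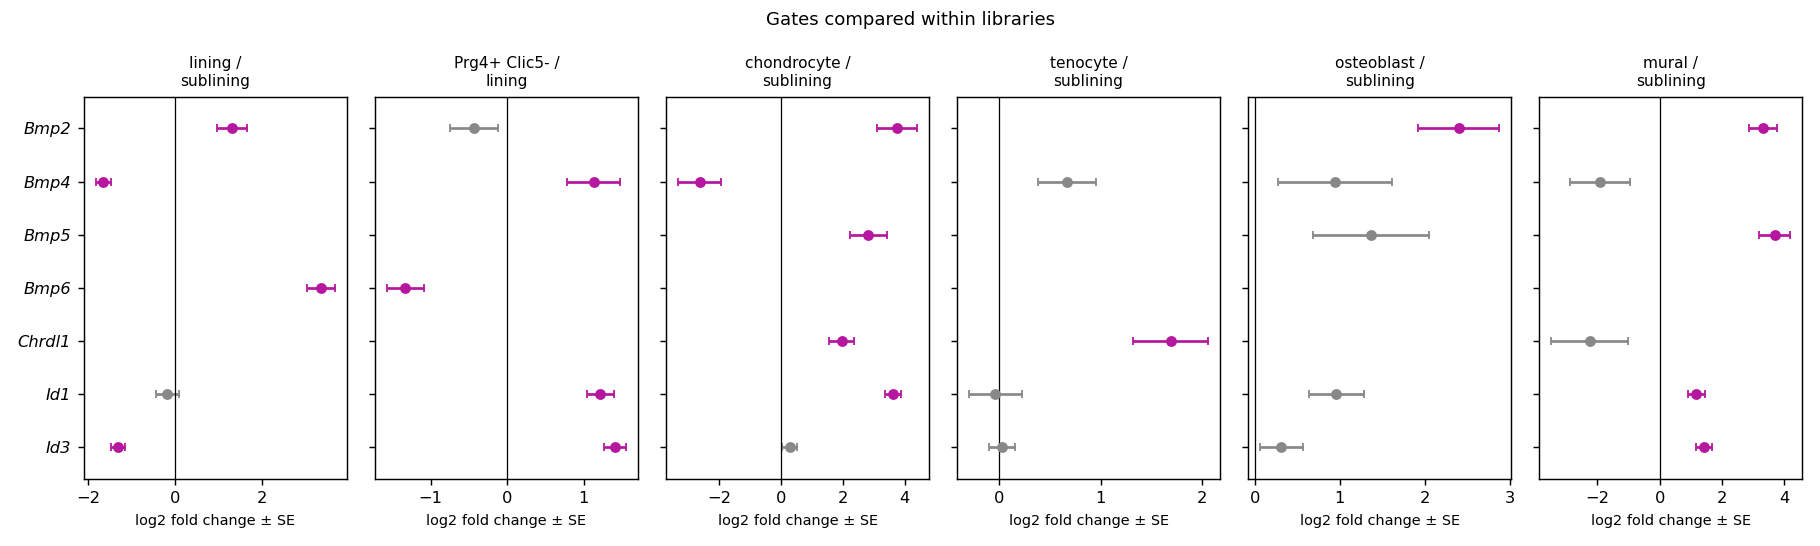
Log2 difference of each tested gene between a cell class and its comparison class in the same libraries, in purple for a false discovery rate under 0.05 and grey otherwise, with bars for ± 1 SE (*Chrdl1* in lining, at 0, is left out). *Id1* and *Bmp2* lie above 3 in chondrocytes, and *Bmp6* lies above 3 in lining.

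Injured and steady-state Tom+ sublining fibroblasts were compared to ask how the pathway stood 6 days after injury. *Bmp2* and *Bmp4* fell, *Bmp5* had a difference of similar size that did not pass, and neither *Id* gene passed. The 2 calls were among 7 genes tested, both lower, while 12.7% of all genes were called and 7.2% were called lower. *Bmp4* was 45.6 and 71.1 CPM in steady state and 8.54, 11.4, 19.4 and 10.1 in injured replicates 1 to 4. Every injured library was below both steady-state ones, and the log2 change was -2.29 ± 0.32, or 4.88-fold lower (adjusted p = 0.004667).

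*Bmp4* lies on chromosome 14 at 46383520 to 46390669 on the minus strand of GRCm38.p6. Its upstream sequence is shown because *Bmp4* had the smallest adjusted p of the 9 genes in this comparison, and that of *Bmp5*, on chromosome 9 at 75775364 to 75900310 on the plus strand, is shown as a ligand of the same family whose change did not pass. Both sequences are from RefSeq and end 1 base before the annotated gene start, at chr14:46390670-46390919 for *Bmp4* and chr9:75775115-75775363 for *Bmp5*. RefSeq promoters matched 5 of the 9 genes. Capitals mark matches, searched on both strands, to 5 short motifs. CACGTG is a form of the E-box, whose other forms were not searched, and the GC-rich motif that SMAD proteins of the BMP branch bind is GGCGCC. The classical SMAD-binding element was searched as CAGAC, the GC box as GGGCGG and the TATA box as TATAAA.

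Bmp4: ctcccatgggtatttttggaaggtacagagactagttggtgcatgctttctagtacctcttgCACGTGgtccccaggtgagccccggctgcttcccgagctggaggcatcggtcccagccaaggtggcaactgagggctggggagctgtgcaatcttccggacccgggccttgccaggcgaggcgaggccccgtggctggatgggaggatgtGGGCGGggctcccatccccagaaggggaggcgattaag

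Bmp5: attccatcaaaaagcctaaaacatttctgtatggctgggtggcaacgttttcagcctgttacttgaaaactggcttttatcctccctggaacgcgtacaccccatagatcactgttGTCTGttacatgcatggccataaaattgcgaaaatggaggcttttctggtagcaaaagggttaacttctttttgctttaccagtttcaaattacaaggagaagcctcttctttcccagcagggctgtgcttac

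The *Bmp4* sequence, with 63.2% G+C over 250 bases, held 1 CACGTG starting 188 bases before the gene start and 1 GGGCGG starting 38 bases before it. The *Bmp5* sequence, with 43.0% G+C over 249 bases, held 1 CAGAC on the reverse strand, starting 133 bases before the gene start. Neither held GGCGCC or TATAAA. Among 27025 promoters of 250 bases, CACGTG was present in 6.05%, GGGCGG in 32.9%, CAGAC in 42.1%, GGCGCC in 9.54% and TATAAA in 13.0%.

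*Bmp2* was 16.8 and 46.0 CPM in the Tom+ steady-state sublining and 5.65, 4.78, 8.07 and 2.02 in the injured replicates, again with no overlap. The log2 change was -2.64 ± 0.51, or 6.23-fold lower (adjusted p = 0.01491). *Bmp5* was 6.81 and 12.6 CPM and then 5.36, 0.598, 1.10 and 1.35, with a log2 change of -2.02 ± 0.69 (adjusted p = 0.0836). Without Tom+ injured replicate 1, which held the most *Bmp5* of the injured libraries, it passed (-3.25, adjusted p = 0.00354). *Bmp6* (-0.25 ± 0.81), *Chrdl1* (-0.44 ± 0.39), *Id1* (0.35 ± 0.39) and *Id3* (-0.01 ± 0.28) did not pass, and *Nog* and *Grem1* were filtered out. *Id1* in the injured libraries, at 62.8, 22.1, 53.2 and 28.7 CPM, spanned the steady-state values of 33.5 and 31.2.

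The fall was also seen in the share of cells. After every cell was thinned to 3000 UMIs, *Bmp2* was detected in 7.94% to 8.84% of Tom+ steady-state sublining cells and in 0.787% to 2.198% of injured ones, against 12.3% to 19.7% and 2.33% to 9.39% unthinned. *Bmp4* was detected in 9.35% to 15.3% and 2.76% to 7.69% after thinning, against 25.0% to 33.8% and 9.71% to 15.9% before. In the thinned immune gate both genes were at 0%. Thinning left out 6 and 11 shallower cells of the uninjured Tom+ libraries, and 0 to 3 of each injured one. For the thinned test the classes were set again, so depth and class membership changed together. Without Tom+ steady state replicate 2 neither call held, at -1.75 for *Bmp2* (adjusted p = 0.172) and -1.96 for *Bmp4* (adjusted p = 0.0534), and on thinned counts *Bmp4* had -1.22 (adjusted p = 0.105) and the 1 call left was *Bmp2*.

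Several measures moved with state in these libraries. Median UMIs per sublining cell were 8356 and 8832 in Tom+ steady state and 11295 to 20838 after injury, and pseudogenes took 2.16% and 3.42% of UMIs against 0.544% to 1.08%. Summed chondrocyte markers were 2.62 and 14.8 CPM against 16.5 to 158, summed osteoblast markers 54.5 and 92.0 against 3.62 to 12.3, and cycling cells 0% against 0.778% to 19.7%. Immediate early genes summed to 7819 and 7912 CPM against 3983 to 9650, which overlapped. Cell make-up moved too. *Lrrc15*+ cells, which were low in *Bmp4*, made up 0 of 525 Tom+ sublining cells in steady state and 351 of 998 after injury. Universal cells, in which *Bmp2* and *Bmp4* were higher, made up 102 and 95 of these totals. Within Tom+ universal cells *Bmp4* was 48.2 to 111 CPM in steady state and 13.3 to 33.3 after injury. *Bmp2* there was 21.9 to 77.5 and 6.655 to 18.0 CPM. How much of the *Bmp2* and *Bmp4* changes each measure accounts for was not tested.

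**Figure D4:**
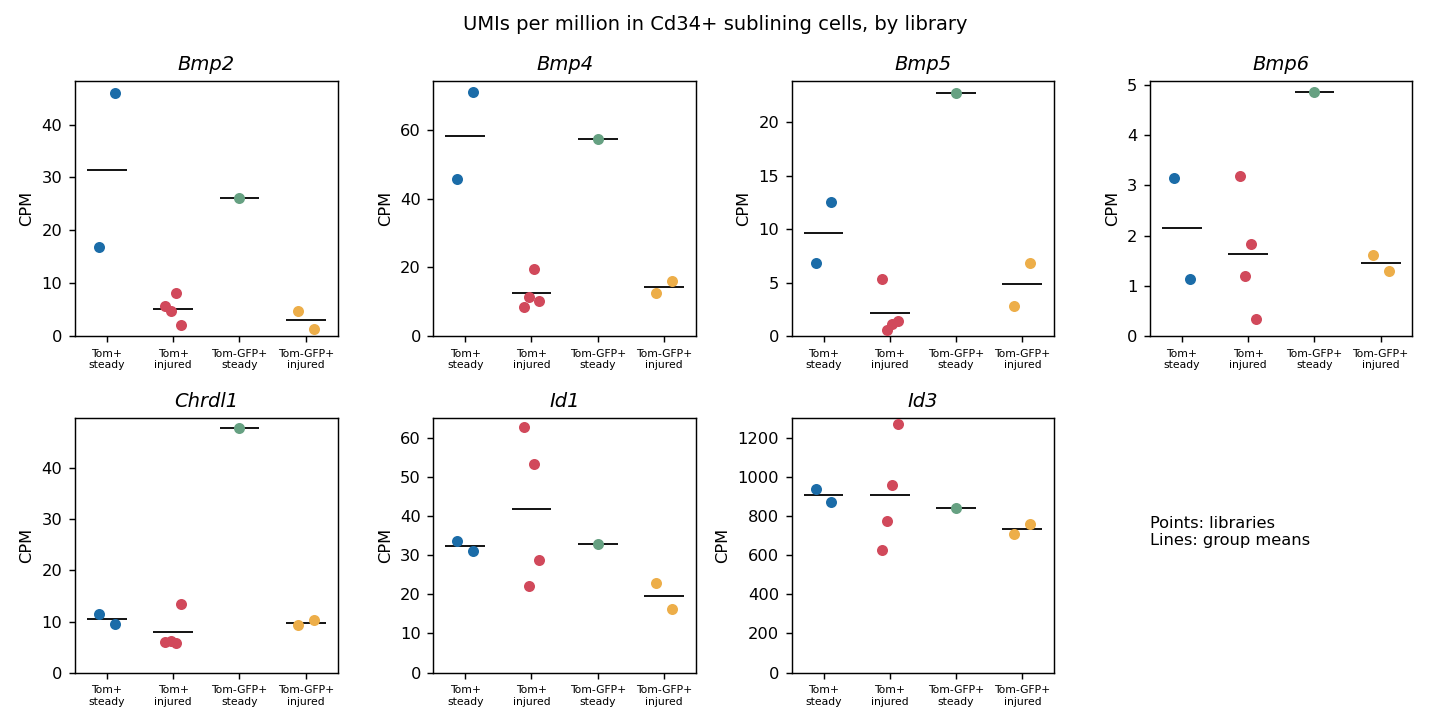
CPM of each tested gene in sublining fibroblasts, 1 point per library, by group. *Bmp4* and *Bmp2* of all injured libraries lie below all steady-state libraries in both lineages, whereas *Id1* and *Id3* overlap between states in Tom+ cells.

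In Tom-GFP+ sublining cells the single steady-state library had 26.1 CPM of *Bmp2* and the injured ones 4.63 and 1.29. *Bmp4* was 57.5 against 12.5 and 15.9, with log2 changes of -2.97 ± 0.75 for *Bmp2* (adjusted p = 0.079) and -2.03 ± 0.45 for *Bmp4* (adjusted p = 0.0607). Neither passed, although both injured libraries were below the steady-state one, and DESeq2 called both (adjusted p = 0.0278 and 0.0179). *Chrdl1* was 47.8 CPM in steady state, the highest of all 9 libraries, and 9.25 and 10.3 after injury (-2.29 ± 0.46, adjusted p = 0.04927). It was 1 call of 7 genes tested, against 1.6% of all genes. With 1 steady-state sample the spread came from the other groups, and without either injured library the call was lost (adjusted p = 0.247 and 0.124). It was also lost under 4 other alternatives, namely without the deepest cells (adjusted p = 0.0553), with 1 more marker (0.0886), thinned (0.156) and in universal cells alone (0.0605). In the same libraries summed osteoblast markers were 254 CPM in steady state against 14.7 and 28.4 after injury, and mural markers 45.6 against 11.2 and 28.2. Immediate early genes summed to 12701 CPM against 6292 and 7660, and pseudogenes took 3.15% of UMIs against 0.572% and 0.644%. Their part in the *Chrdl1* change was not tested.

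The study describes the Tom-GFP+ cells as taken from mice matched to the Tom+ ones, and which libraries share a mouse is not given in the labels, so the lineage tests treat libraries as independent. The difference between the lineages in the injury effect was tested directly, and 0 of 7 genes passed, as did 0.0% of all genes (edgeR, with 234 genes at an unadjusted p under 0.05). For *Chrdl1* the Tom+ change minus the Tom-GFP+ change was 1.84 ± 0.61 (unadjusted p = 0.01418, adjusted p = 1.0). Between lineages in steady state 0 of 7 passed, against 0.0163% of all genes, and *Chrdl1* had the largest difference, at 11.5 and 9.51 CPM in Tom+ against 47.8 in Tom-GFP+ (-2.13 ± 0.47, adjusted p = 0.359). Between lineages after injury 0 of 7 passed, against 0.0245% of all genes, and *Id1* differed most, at 22.1 to 62.8 CPM in Tom+ against 22.9 and 16.3 in Tom-GFP+ (1.10 ± 0.40, adjusted p = 0.843).

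In Tom+ lining 0 of 5 genes passed after injury, against 3.32% of all genes. *Bmp6* was 50.9 and 39.8 CPM in steady state and 23.4, 16.5, 6.84 and 11.2 after injury, without overlap (-1.60 ± 0.49, adjusted p = 0.096). *Bmp4* was 12.7 and 24.3 CPM and then 2.13 to 6.16, also without overlap (-1.97 ± 0.60, adjusted p = 0.0966). The steady-state lining rested on 21 and 30 cells. Other measures also separated the states there, with immediate early genes at 9243 and 9425 CPM against 4160 to 8181, pseudogenes at 2.86% and 1.87% of UMIs against 0.479% to 0.915%, and tenocyte markers at 356 and 745 CPM against 23.5 to 193. The immediate early genes *Fosb*, *Jund* and *Egr1* fell, and the part of these measures was not tested. *Bmp6* passed without Tom+ injured replicate 1 (-1.90, adjusted p = 0.0288), and the *Bmp2* value went from -1.39 to 2.69 without Tom+ steady state replicate 2, so its direction rested on that library. In the osteoblast gate 0 of 4 genes passed, against 0.924% of all genes, with *Bmp4* at 73.3 and 14.9 CPM in steady state and 83.9 and 69.2 after injury (1.25 ± 0.71, adjusted p = 0.479).

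**Figure D5:**
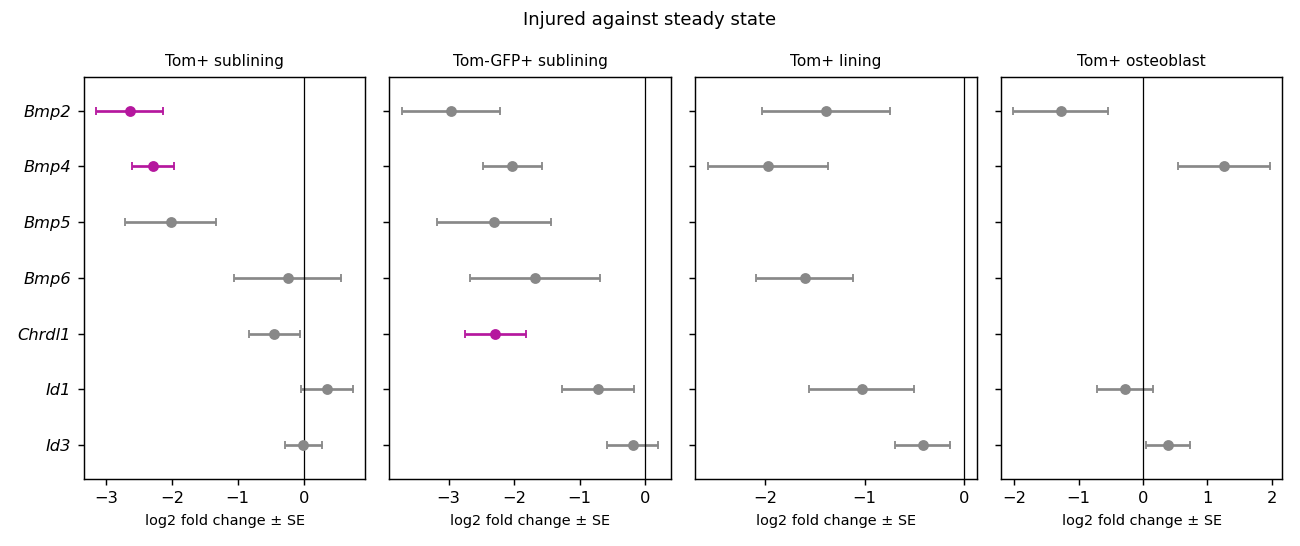
Log2 change of each tested gene after injury in Tom+ sublining, Tom-GFP+ sublining, Tom+ lining and Tom+ osteoblast cells, in purple for a false discovery rate under 0.05 and grey otherwise, with bars for ± 1 SE. *Bmp4* lies near -2 in the 3 fibroblast comparisons and above 0 in osteoblasts, and only *Bmp2* and *Bmp4* in Tom+ sublining and *Chrdl1* in Tom-GFP+ sublining are purple.

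The rest of the pathway was read from 48 other genes, comprising 11 ligands, 10 receptors and co-receptors, 11 secreted antagonists, 9 intracellular components and 7 targets. After injury in Tom+ sublining 34 could be tested, with 1 higher and 5 lower, where 12.7% of all genes were called and 7.2% were called lower. Their median log2 change was -0.50 against -0.00 over all genes. The 14 immediate early genes had the same median, -0.50, with 1 called higher and 1 lower. The antagonists *Fst*, which encodes the activin and BMP binder follistatin (-1.86 ± 0.40), and *Chrd*, which encodes chordin (-1.40 ± 0.22), fell. The homeobox targets *Dlx5* (-1.89 ± 0.36) and *Msx1* (-1.85 ± 0.35) also fell, as did the co-receptor gene *Rgmb* (-0.85 ± 0.20), while the inhibitory SMAD gene *Smad7* rose (1.07 ± 0.30, adjusted p = 0.0497). *Dlx5* was higher in osteoblasts than in sublining (3.78 ± 0.27), and summed osteoblast markers fell in these libraries as given above. *Msx1* was lower in *Lrrc15*+ cells (-1.27 ± 0.20), which were present in numbers only after injury. The part of these measures in the *Dlx5* and *Msx1* changes was not tested. None of the 34 passed in Tom-GFP+ sublining (1.6% of all genes) or of the 26 tested in Tom+ lining (3.32% of all genes). In osteoblasts 1 of 9 did, *Dlx5* (-2.87 ± 0.40), against 0.924% of all genes.

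Between lining and sublining 30 of the 48 were tested, with 3 higher and 10 lower in lining, against 31.2% of all genes called. *Fst* had the largest difference (-4.64 ± 0.49), followed by the ligand gene *Gdf10* (-3.83 ± 0.48), and *Fstl3* (1.33 ± 0.28) and *Rgmb* (1.24 ± 0.14) were higher in lining. In *Prg4*+ *Clic5*- cells 1 of 26 passed, *Nbl1* (0.61 ± 0.15), against 15.6% of all genes. In universal cells 3 of 26 were higher, including *Fstl1* (0.78 ± 0.06) and *Msx1* (0.77 ± 0.14), and 2 were lower, *Gdf10* (-1.91 ± 0.40) and *Fstl3* (-1.76 ± 0.30), against 11.8% of all genes. In *Lrrc15*+ cells 7 of 27 were lower and 0 higher, against 14.6% of all genes called. Among the lower ones were *Gdf10* (-2.06 ± 0.33), the type II receptor gene *Acvr2a* (-1.35 ± 0.23), *Bmper* (-1.31 ± 0.27) and *Msx1* (-1.27 ± 0.20).

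In chondrocytes 31 were tested, with 8 higher and 7 lower than in sublining, against 16.0% of all genes called. The ligands *Gdf5* (6.06 ± 0.72) and *Bmp7* (4.52 ± 0.82), the BMP-binding membrane protein gene *Crim1* (3.57 ± 0.36) and the pseudoreceptor *Bambi* (2.81 ± 0.30) were higher, and *Fstl1* (-4.17 ± 0.41) and *Fst* (-3.33 ± 0.73) were lower. In osteoblasts 5 of 29 were higher and 2 lower (8.15% of all genes called), led by the ligand *Bmp8a* (5.01 ± 0.54) and by *Dlx5* (3.78 ± 0.27), with the inhibitory *Smad6* at 1.99 ± 0.44. In mural cells 9 of 31 were higher and 6 lower (18.4% of all genes called), *Bmper* among the latter (-3.54 ± 1.03), with *Id4* (4.14 ± 0.49), *Crim1* (3.35 ± 0.43), *Fst* (3.07 ± 0.29) and *Hey1* (3.04 ± 0.82) among those higher. In tenocytes 3 of 27 were lower, *Bmper* (-1.61 ± 0.33), *Msx1* (-1.22 ± 0.20) and *Fstl1* (-0.95 ± 0.15), and 0 were higher, against 5.2% of all genes called.

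Genes whose pattern was most like each of the 9 were found by Pearson's r of log2(CPM + 1) over 19 combinations of class and group, which share libraries. CPM here pools the UMIs of all libraries of a group, whatever their number of cells. For *Id3* they were *Mfge8* (r = 0.971), *Cryab* (0.964) and *Il6st* (0.96), and for *Bmp2* they were *Sertad2* (0.9), *Kmt2e* (0.9) and *Crim1* (0.888). *Bmp4* was most like the ribosomal genes and pseudogenes *Rpl38-ps2* (0.909), *Rps15a-ps6* (0.887) and *Rps27* (0.884), and pseudogene share moved with state as given above. The nearest genes were *Tmem204* (0.863) for *Bmp5*, *Gpr1* (0.84) for *Bmp6*, *Srpx* (0.861) for *Chrdl1*, *Frzb* (0.84) for *Nog*, *Kcnk2* (0.865) for *Grem1* and *Rasd1* (0.818) for *Id1*. Each r is the highest among all genes that passed the level filter. The highest point of *Grem1*, at 71.35 CPM, came from 26 UMIs in 1 osteoblast-gate cell. That of *Nog*, at 21.95 CPM, came from 8 UMIs.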

How the data were processed

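Sorted live cells were run on the 10x Genomics 5′ kit and sequenced on a NextSeq 500, and the authors made the count tables with Cell Ranger on GRCm38.p6. The deposited values are raw UMI counts per gene and called cell, without normalization; version 3.0.2 stands in the headers of 5 libraries and none in 4. A cell was used if it had 500 or more genes and 1000 or more UMIs, no more than 10% of them mitochondrial. Doublets were not called; cells in several classes were left out. The study describes as many mice as there are libraries in each group, with Tom-GFP+ cells from matched mice; the labels tie no library to a mouse, so each was taken as a separate sample. The median depth per library was 8050.5 to 18567 UMIs per kept cell.

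UMIs were summed per library and class and tested with edgeR 4.0.16 (quasi-likelihood, TMM, filterByExpr, Benjamini-Hochberg over all genes) in R 4.3.3. Comparisons between groups fitted all groups together, and comparisons between classes had library as a block. The SE is the absolute log2 change over the square root of F. Intervals and floors cover counting error only. DESeq2 1.42.0, other cell, gate and count filters, thinning, the replicate block and leaving out each library were the alternatives. Thinned fits had their classes set again on the thinned counts.

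The members, gene lists and tests were chosen with earlier results of these data known. Every called gene of the 9 is named in its comparison, while some that did not pass or were not tested are not named. Genes named from the 48 others are among up to 6 per comparison with the largest change past the threshold. Some of those 6 are not named. For likeness up to the top 3 genes are named, with at least 50 CPM in a point of 20 or more cells. One further pathway gene of the original list is not reported here. Same-numbered libraries correlated in their deviations at 0.046 and 0.159 (Tom+ steady state and injured) and at 0.312 and 0.216 (Tom-GFP+ and Tom+ injured). Tested on simulated data, the Tom+ sublining comparison (11797 genes) recovered 5.61% of changes of 1 and 62.4% of changes of 2 on the log2 scale, Tom+ lining (9217 genes) 3.6% and 43.8%, and Tom-GFP+ sublining (11805 genes) 0% and 17%. The simulation gave every gene the same dispersion and all libraries a shared mean profile. It had no library effects, so recovery in the real data may differ.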

Additional observations from a re-analysis of the deposited data

Results flagged for a closer look

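In 4 cases 1 library lay further from the other 3 Tom+ injured libraries than Dixon's 95% limit allows, which chance gives in about 1 of 20 groups. The screen covered the 9 genes in each of 4 classes, namely sublining, universal, lining and *Prg4*+ *Clic5*- cells. Groups without any spread were left out. *Bmp5* in sublining was 5.358 CPM in Tom+ injured replicate 1 (37 UMIs in 309 cells) and 0.598 to 1.349 in the others. *Bmp5* in universal cells was 4.442 CPM in the same library, from 2 UMIs, and 0 in the others. *Chrdl1* in sublining was 13.49 CPM in Tom+ injured replicate 4 (40 UMIs) and 5.872 to 6.279 in the others. *Id3* in lining was 542.2 CPM in Tom+ injured replicate 3 and 285.9 to 326.5 in the others.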

How the results depend on the processing

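Depth limits the scarce genes: *Nog* and *Grem1* passed the count filter in 0 comparisons, and thinning left mostly the *Id* genes. Leaving out Tom-GFP+ steady state replicate 1 or either mural library, and some stricter gates and thinned sums in osteoblast and *Lrrc15*+ cells, could not be run. The cause of each change below was not tested.

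Members called, where the number moved. Thinned to 3000 UMIs, 1 was called in Tom+ sublining after injury (2 before), 0 in Tom-GFP+ sublining, 1 in lining against sublining, 0 in universal, 1 in chondrocyte, 0 in tenocyte, 2 in mural and 2 in *Prg4*+ *Clic5*- cells. With 1 more marker required, 0 were called in Tom-GFP+ sublining, 2 in universal and 0 in *Lrrc15*+ cells. Without a filter on low counts 4 were called in Tom+ lining, 4 in Tom-GFP+ sublining, 1 in each lineage comparison, 2 in *Lrrc15*+ and 2 in osteoblast cells. Without the 5% of cells with the most UMIs 1 was called in Tom+ lining and 2 in osteoblasts, where stricter cell filters and libraries of 5 or more cells also gave 2. In Tom-GFP+ sublining DESeq2 called 3, the format covariate 2, only the groups compared 4 and universal cells alone 0, and the format covariate called 1 in injured osteoblasts. Leaving out 1 library gave 0 to 3 in Tom+ sublining, 0 to 1 in Tom+ lining and in injured osteoblasts, 0 in Tom-GFP+ sublining, 5 to 6 in lining against sublining, 2 to 4 in universal, 1 to 2 in osteoblast, 4 to 5 in chondrocyte and 3 in *Prg4*+ *Clic5*- cells.

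The following log2 values changed sign, without passing the threshold under the alternative. In Tom+ sublining after injury *Bmp6* was 0.0167 without the deepest cells, 0.2810 with 1 more marker, 0.5696 with format and 0.3220 without injury-induced or cycling cells. There *Chrdl1* was 0.7596 thinned, *Id1* -0.0032 without injury-induced or cycling cells, and *Id3* 0.0046 without the deepest cells, 0.0024 unfiltered and 0.6722 in universal cells. In Tom+ lining *Bmp2* was 0.2736 without the deepest cells and 1.0273 with 1 more marker, and in Tom-GFP+ sublining *Id1* was 0.0959 with format. For the difference between lineages in the injury change, *Bmp2* was -0.0258 and *Bmp5* -0.5400 without injury-induced or cycling cells, and *Bmp5* was -0.3321 thinned and -0.9301 with format. Between injured lineages *Bmp4* was 0.2462 in universal cells. Between steady-state lineages *Bmp2* was -0.0648 with 1 more marker, *Bmp4* -0.0084 without the deepest cells and -0.6186 thinned, *Id1* -0.1210, -0.3710 and -1.2564 (deepest cells, 1 more marker, universal) and *Id3* -0.2942 in universal cells. *Bmp4* in universal cells was -0.0877 thinned, *Id3* in *Lrrc15*+ cells 0.0222 with 1 more marker, and *Id3* in tenocytes -0.0484 without the deepest cells, -0.0502 thinned and -0.0229 unfiltered.

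Leaving out 1 library, these ranges crossed 0: in Tom+ sublining *Bmp6* -0.8742 to 0.5732 and *Id3* -0.2508 to 0.1479; in Tom+ lining *Bmp2* -2.1864 to 2.6922 and *Id1* -1.6064 to 0.4317; in the lineage difference *Bmp2* -0.1864 to 1.6466, *Bmp4* -0.5457 to 0.0944, *Bmp5* -0.9268 to 1.0128 and *Id3* -0.0369 to 0.3328. Between injured lineages *Bmp4* ran from -0.4737 to 0.0057 and *Bmp6* from -0.3539 to 0.5666, and between steady-state lineages *Bmp2* from -0.5835 to 0.8523, *Bmp4* from -0.2789 to 0.3435 and *Id1* from -0.0383 to 0.0852. *Chrdl1* in *Lrrc15*+ cells ran from -0.9151 to 0.1094, and in tenocytes *Id1* from -0.3113 to 0.1216 and *Id3* from -0.0545 to 0.1261.

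With the replicate number as a block, *Bmp2* (-2.55, adjusted p = 0.0303) and *Bmp4* (-2.58, adjusted p = 0.00256) kept their edgeR calls in Tom+ sublining, 0 members were called in Tom+ lining, osteoblasts and between injured lineages, and *Id3* between injured lineages was -0.0649. The labels do not say whether a shared number marks a shared mouse, although the study calls the mice of the lineages matched.

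Genes called in all. Thinned, 538 were called in Tom+ sublining after injury (1555 before), 84 in Tom+ lining (311), 16 between injured (3) and 11 between steady-state lineages (2), 1085 in lining against sublining (3182), 102 in universal (972), 254 in osteoblast (670), 579 in chondrocyte (1408), 162 in tenocyte (449), 693 in mural (1833) and 370 in *Prg4*+ *Clic5*- cells (1452). Unfiltered, they were 2789 in Tom+ sublining, 1075 in Tom+ lining, 257 in injured osteoblasts (24), 1608 in Tom-GFP+ sublining (196), 74 for the lineage difference (0), 352 and 247 between injured and steady-state lineages, 1612 in universal, 1233 in osteoblast, 2433 in chondrocyte and 917 in tenocyte cells. By DESeq2 they were 46 in injured osteoblasts, 462 in Tom-GFP+ sublining, 3, 47 and 30 for the lineage comparisons, 895 in *Lrrc15*+ (1361) and 713 in mural cells. With format they were 68 in Tom+ lining, 185 in injured osteoblasts, 563 in Tom-GFP+ sublining and 2 for the lineage difference. With the block they were 136 in Tom+ lining, 0 in osteoblasts and 5 between injured lineages. With 1 more marker they were 113 in Tom-GFP+ sublining, 0 between steady-state lineages, 587 in universal and 131 in *Lrrc15*+ cells. Without injury-induced or cycling cells they were 426 in Tom-GFP+ sublining and 12 between steady-state lineages, with only the groups compared 1361 and 26, and in universal cells 319 in Tom+ sublining and 5 between steady-state lineages. Strict cell filters gave 312 in injured osteoblasts, and leaving out the deepest cells gave 4 between steady-state lineages. Leaving out 1 library gave 177 to 1868 in Tom+ sublining, 27 to 512 in Tom+ lining, 0 to 312 in injured osteoblasts, 0 to 11 in Tom-GFP+ sublining, 0 to 2 for the lineage difference, 1 to 15 and 0 between injured and steady-state lineages, 809 to 1328 in *Lrrc15*+ and 921 to 1504 in *Prg4*+ *Clic5*- cells.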
